A study of Homo sapiens with 12 samples.

Results

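The 50 genes described here encode the machinery of mitosis: cyclins and their kinase, mitotic kinases, the spindle checkpoint, kinetochore proteins, motors, spindle proteins and condensin. A gene was kept when a probe carrying its symbol or an older synonym was detected on at least 3 of 12 arrays, with a detection score above 0.99, and the brightest such probe stood for the gene. Of the 50 listed genes 49 were kept, among 14051 detected probes of 48803 on the array. Only the condensin gene NCAPH was left out. The cells were CHRF288-11, a human megakaryoblastic line, that is, a leukaemia-derived line with features of the platelet-forming lineage. All had been kept without serum for 16 h and were collected at 8 h. The groups were cells given Wnt3a (150 ng/mL), cells given Wnt5a (1200 ng/mL), cells given both recombinant proteins at those doses, and Untreated cells, with 3 arrays each, called biological replicates by the submitters. No group received a vehicle, and each ligand was given at 1 dose, so that ligand and dose cannot be told apart.

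In a dividing cell, cyclin B bound to CDK1 starts mitosis, condensin compacts the chromosomes, and kinesin motors build the spindle. The kinetochore couples each chromosome to microtubules, and the spindle checkpoint holds back the anaphase-promoting complex until every kinetochore is attached. Many of these genes are transcribed late in the cell cycle from promoters that carry a cell cycle genes homology region (CHR) and CCAAT boxes bound by the factor NF-Y. Wnt3a typically stabilises beta-catenin, whereas Wnt5a typically acts through pathways without beta-catenin.

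RefSeq promoter windows of GRCh38.p14, each 250 bases before to 50 bases after the start of a gene, were at hand for 43 of the 50 genes. For each gene 1 window was used, the first listed, and windows at other starts were not searched. The other members, AURKA, BIRC5, TTK, BUB3, UBE2C, FOXM1 and TPX2, were not analysed for motifs here. The CHR motif was searched as TTTGAA and the NF-Y box as CCAAT, both on either strand, and matches could share bases. Other forms of either motif were not searched. BUB1, CENPF and KIF4A are printed because they changed with treatment, and CCNB2 and PLK1 because their windows show the usual layout of the motifs. Letters are lower case except for CCAAT, its reverse complement ATTGG and TTTGAA, which are in capitals, and each is written 5′ to 3′ along the strand of the gene. The windows lie at chr2:110678014-110678313, minus strand (BUB1), chr1:214602945-214603244, plus strand (CENPF), chrX:70289854-70290153, plus strand (KIF4A), chr15:59104896-59105195, plus strand (CCNB2), and chr16:23678639-23678938, plus strand (PLK1).
BUB1: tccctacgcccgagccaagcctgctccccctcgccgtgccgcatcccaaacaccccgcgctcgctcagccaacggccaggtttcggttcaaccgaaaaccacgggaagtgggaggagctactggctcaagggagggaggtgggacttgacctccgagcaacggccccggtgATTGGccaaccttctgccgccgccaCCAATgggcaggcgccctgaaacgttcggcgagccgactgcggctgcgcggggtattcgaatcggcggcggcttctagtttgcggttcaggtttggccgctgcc
CENPF: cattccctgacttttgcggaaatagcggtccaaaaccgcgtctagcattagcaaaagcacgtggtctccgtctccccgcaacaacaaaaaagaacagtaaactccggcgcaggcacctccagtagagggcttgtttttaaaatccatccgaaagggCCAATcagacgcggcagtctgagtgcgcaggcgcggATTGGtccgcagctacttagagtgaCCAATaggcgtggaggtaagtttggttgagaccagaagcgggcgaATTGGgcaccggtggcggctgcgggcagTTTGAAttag
KIF4A: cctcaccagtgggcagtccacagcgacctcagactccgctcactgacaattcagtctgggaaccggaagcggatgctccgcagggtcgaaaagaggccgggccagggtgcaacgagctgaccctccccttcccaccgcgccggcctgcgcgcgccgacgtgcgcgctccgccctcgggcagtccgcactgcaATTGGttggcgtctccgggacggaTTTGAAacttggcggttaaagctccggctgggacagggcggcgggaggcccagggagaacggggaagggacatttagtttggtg
CCNB2: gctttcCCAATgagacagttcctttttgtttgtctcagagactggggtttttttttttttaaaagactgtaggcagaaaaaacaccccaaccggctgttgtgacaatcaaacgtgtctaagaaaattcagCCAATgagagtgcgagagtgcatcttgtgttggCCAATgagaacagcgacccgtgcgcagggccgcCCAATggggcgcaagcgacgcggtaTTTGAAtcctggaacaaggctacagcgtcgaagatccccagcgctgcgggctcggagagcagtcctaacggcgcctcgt
PLK1: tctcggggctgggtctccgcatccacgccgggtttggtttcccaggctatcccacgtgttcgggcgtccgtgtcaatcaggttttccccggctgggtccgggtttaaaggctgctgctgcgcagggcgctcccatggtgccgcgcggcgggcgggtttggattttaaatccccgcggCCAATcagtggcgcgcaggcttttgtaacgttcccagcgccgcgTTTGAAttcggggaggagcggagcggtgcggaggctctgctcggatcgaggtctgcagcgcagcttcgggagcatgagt

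A CHR match stood in 30 of the 43 windows (69.8%), against 9.82% of the 8035 windows of genes with a detected probe and 15.4% of all 27305 gene windows. On the strand of the gene alone, 58.1% of the mitosis genes held it, against 5.4% of genes with a detected probe. The NF-Y box stood in 31 of 43 windows (72.1%), against 37.7% of genes with a detected probe, and both motifs together stood in 23 (53.5%), against 4.36%. Matches to CHR sat near the start: 24 of 39 lay between positions -60 and 20 counted from the transcription start, and their median position was -29. In a list of other mitotic and chromosome genes, the CHR share was 34.9% and the NF-Y share 56.3%.

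The arrangement differed among members. CCNB2, which encodes cyclin B2, had NF-Y boxes at -244, -120, -87 and -54 and a CHR at -29, with starts 33 bases apart between the last 3 boxes and 25 bases between the last box and the CHR. PLK1, the Polo kinase, had 1 box at -73 and a CHR at -29. KIF4A had an opposite-strand box at -58 and a CHR at -34. BUB1 had boxes at -79 on the opposite strand and -54 on its own strand. TTTGAA, the only form of CHR searched, did not occur in its window on either strand. CENPF had 4 boxes, and its CHR match began at position 41, after the start. By role, CHR matches were found in 7 of 8 spindle and cytokinesis genes, 6 of 7 condensin and chromosome genes and 5 of 6 kinetochore genes, but in 2 of 6 cyclins and entry genes and 3 of 6 motors. A match to these letters is a description and not a bound site.

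**Figure D1:**
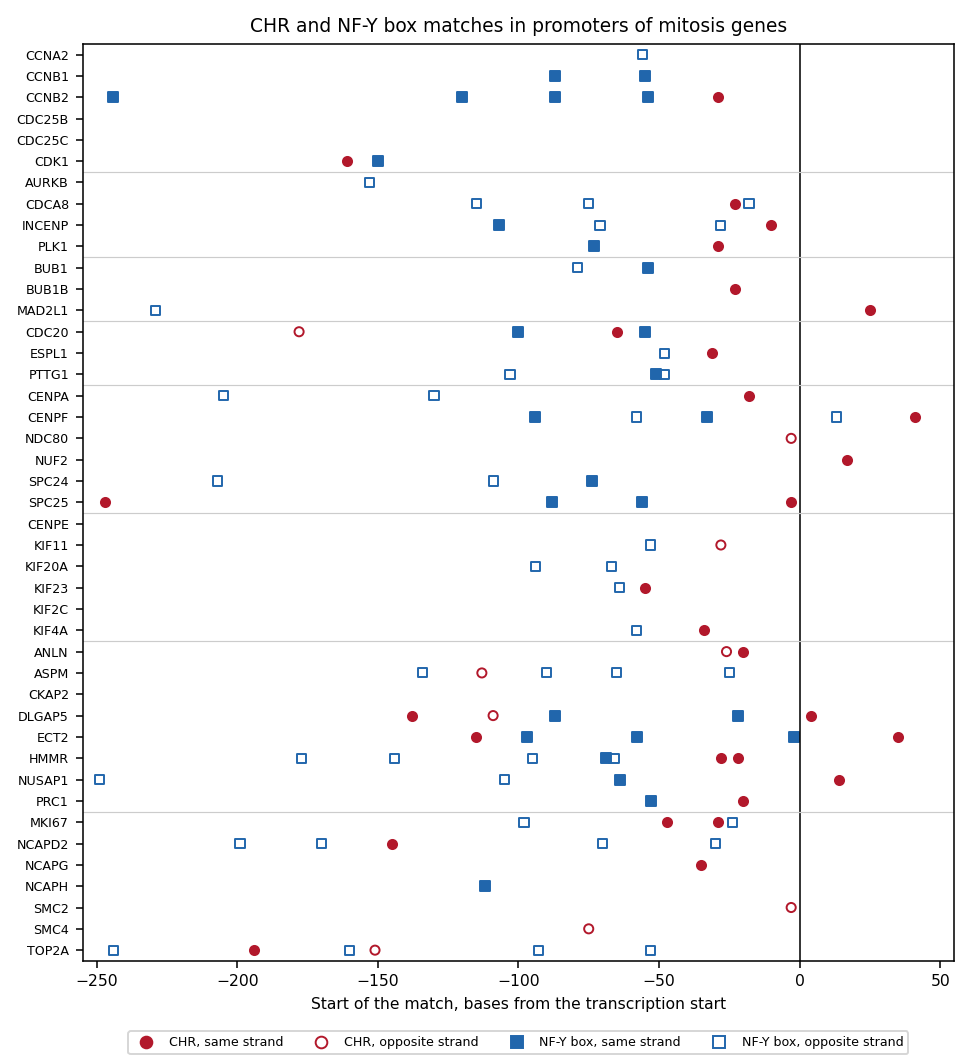
Positions of CHR and NF-Y box matches (x axis, bases from the transcription start; y axis, 43 mitosis genes with a promoter window, ordered by role from cyclins at the top to condensin at the bottom). Filled symbols lie on the strand of the gene and open symbols on the opposite strand. Most CHR matches, 24 of 39, lie between -60 and 20.

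Each of 2 BeadChips carried 6 arrays. Chip 2 carried all 3 combination arrays together with Wnt3a array 1, Wnt5a array 2 and Untreated array 1, and chip 1 carried the other 6. The model therefore had a chip term, and the combination met Untreated cells within a chip only through Untreated array 1. That array stood apart for these genes: its mean deviation from each gene's own 12-array mean was -0.09 in log2 over the 49 genes, the lowest of the 12 arrays, with 15 of 49 above their own mean, while the median deviation of all detected probes on it was 0.01. Each call of a mitosis gene with both ligands against Untreated cells is given with and without that array. The marker calls below are given only with it. Megakaryocyte markers were detected on all 12 arrays for 12 of 15 genes, among them ITGA2B, GP9 and GATA1, whereas the platelet chemokines PF4 and PPBP were detected on 0 arrays. Of the other lineages, 3 of 6 lymphoid, 2 of 5 erythroid and 1 of 6 monocyte and granulocyte markers were detected on all 12 arrays, and the T cell markers CD3D and CD3E on none. Some markers moved with treatment. Of 12 megakaryocyte markers THBS1 fell with Wnt3a by 0.39 (adjusted p = 0.00916) and with both by 0.28 (0.0426), and GP1BA fell with Wnt5a by 0.35 (0.00797) and with both by 0.43 (0.00511). Of 2 detected erythroid markers ALAS2 rose with Wnt5a by 0.39 (0.0301) and with both by 0.43 (0.0328), and of 3 lymphoid markers CD2 rose with Wnt3a by 0.52 (0.00871). The mean log2 level of the 12 megakaryocyte markers ran from 10.73 to 10.82 in Wnt3a cells, 10.76 to 10.86 in Wnt5a cells, 10.77 to 10.83 with both and 10.76 to 10.85 in Untreated cells, and the part of these markers in the results was not tested. In RNA of whole cultures, a change in the share of cells in mitosis and a change in transcript per cell cannot be told apart.

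All 49 genes were detected on all 12 arrays. Just inside the threshold stood BUB1B with a lowest score of 0.99736 and NUF2 and MKI67 with 0.99868, and just outside stood NCAPH, with scores of 0.90382 to 0.98682 and signals of 79.7 to 93.5. Mean log2 intensities of the probes ran from 6.37 for BUB1B, 6.49 for MKI67 and 6.66 for NUF2 to 12.44 for PTTG1, 12.94 for CDC20 and 13.04 for UBE2C. Each probe has its own affinity, so that these values do not order the genes by transcript level. Among members the median standard deviation of the 3 arrays of a group was 0.092 in log2, against 0.114 for all detected probes.

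Most mitosis genes differed little between treated and Untreated cells. With Wnt3a 0 of 49 genes passed an adjusted p of 0.05 in the limma fit, where 1.52% of all probes passed, and 8 had an unadjusted p under 0.05, all positive, as did 12.1% of probes. With Wnt5a 1 gene passed, BUB1, against 5.25% of probes, and 7 higher and 2 lower genes had an unadjusted p under 0.05, as did 17.5% of probes. With both ligands 6 passed, where 7.77% of probes did: BUB1, SMC2, ASPM, SMC4 and CENPF rose and KIF4A fell. An unadjusted p under 0.05 was found with both for 8 higher and 2 lower genes and for 22.6% of probes. The median log2 difference of the 49 was 0.06 with Wnt3a, 0.03 with Wnt5a and 0.08 with both, against medians of all probes of -0.001, -0.005 and -0.010. Differences were positive for 37, 30 and 35 of the 49 genes, while 49.4%, 48.2% and 47.4% of all probes were positive. These 3 comparisons share the Untreated arrays, so their values are given side by side only. Within chips the member medians were 0.06 on chip 1 and 0.10 on chip 2 with Wnt3a, 0.02 and 0.08 with Wnt5a, and 0.11 with both on chip 2, where each chip 2 value is set against Untreated array 1 alone. Without Untreated array 1, the median with both was 0.04 and 33 of 49 genes were positive, against 47.9% of probes.

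**Figure D2:**
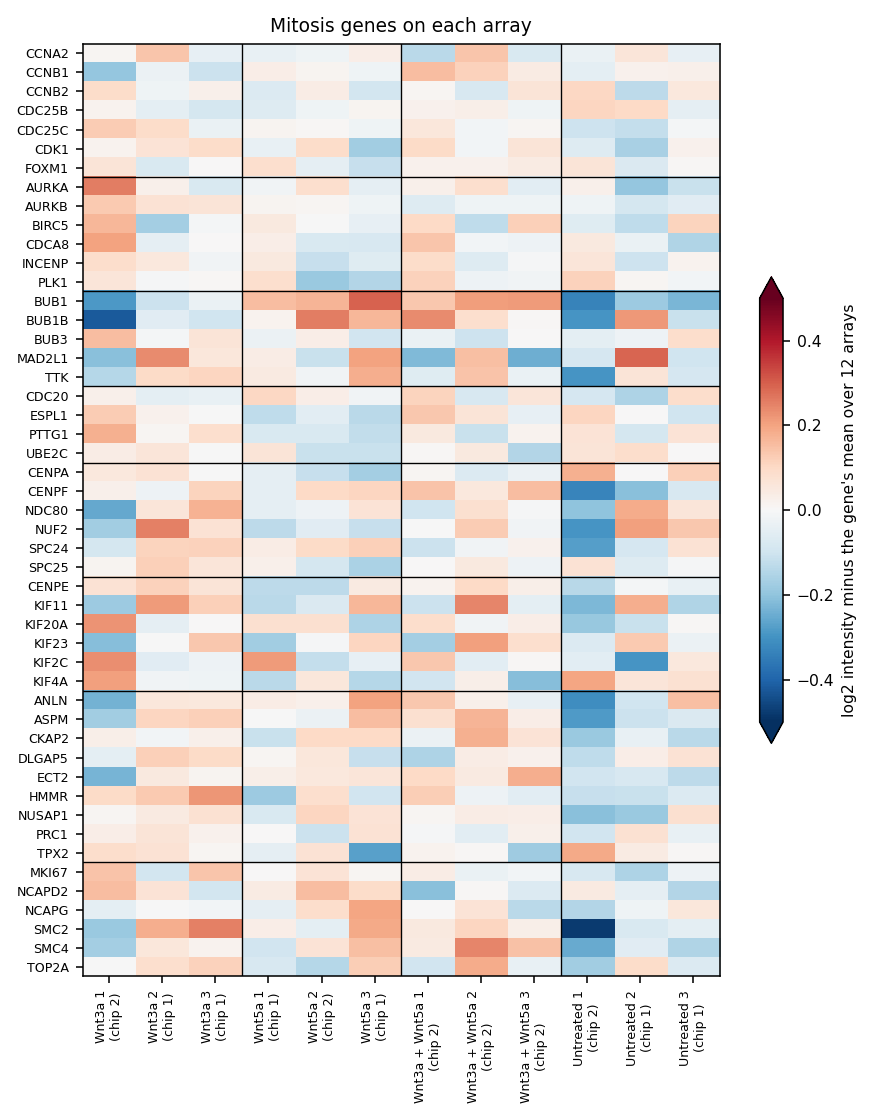
Log2 intensity of each mitosis gene on each array minus the gene's mean over 12 arrays (colour, log2 units; columns are arrays with their chip; rows are the 49 genes by role). On Untreated array 1 most genes lie below their own mean (blue), with 15 of 49 above it.

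Among the regulators of mitotic entry, 0 of 7 genes passed in any of the 3 comparisons with Untreated cells. The median differences of the 7 were 0.02 with Wnt3a, -0.004 with Wnt5a and 0.004 with both, and 1 of the 7 had an unadjusted p under 0.05 with Wnt3a and 0 with Wnt5a or both. CCNB1, encoding cyclin B1, the main partner of CDK1, had log2 intensities of 8.22, 8.39 and 8.31 in Wnt3a cells, 8.45, 8.43 and 8.39 in Wnt5a cells, 8.57, 8.53 and 8.46 with both, and 8.37, 8.44 and 8.44 in Untreated cells. The 3 combination arrays were the highest of the 12, and Wnt3a and Untreated arrays overlapped. Its difference was -0.11 with Wnt3a (95% interval -0.24 to 0.02) and 0.15 with both (-0.01 to 0.30), and neither passed.

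CDK1, the kinase itself, differed by 0.13 with Wnt3a (-0.04 to 0.30), 0.03 with Wnt5a (-0.14 to 0.20) and 0.09 with both (-0.11 to 0.28). CCNB2, the brightest probe of this role, had differences of 0.02, -0.05 and -0.09 in the same order. The phosphatase CDC25B, which removes inhibitory phosphates from CDK1, had -0.10 with Wnt3a, -0.08 with Wnt5a and -0.08 with both. FOXM1, a forkhead factor that drives late cell cycle transcription, had -0.003, -0.03 and -0.01, with intervals that reached -0.18 at the lowest and 0.16 at the highest.

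Of the mitotic kinases and the chromosomal passenger complex, which corrects faulty attachments, 0 of 6 passed with any treatment. AURKA, the spindle pole kinase, and AURKB, the passenger kinase, had differences of 0.16 (0.02 to 0.30) and 0.15 (0.03 to 0.26) with Wnt3a, with unadjusted p of 0.031 and 0.0198 and adjusted p of 0.345 and 0.289 in limma. With both ligands their differences were -0.01 (-0.18 to 0.15) and -0.01 (-0.14 to 0.13). PLK1 had -0.02 with Wnt3a, -0.12 with Wnt5a and -0.02 with both. BIRC5, which encodes survivin and was the brightest probe of this role, had 0.02, 0.03 and 0.01.

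The spindle checkpoint included the gene with the smallest adjusted p of the 49 in the comparisons of Wnt5a and of both with Untreated cells. BUB1, a kinase that recruits checkpoint proteins to the kinetochore, had log2 intensities of 10.39, 10.57 and 10.64 in Wnt3a cells, 10.83, 10.84 and 10.97 in Wnt5a cells, 10.81, 10.89 and 10.89 with both, and 10.34, 10.49 and 10.45 in Untreated cells. All 6 arrays with Wnt5a lay above all 6 without it, a separation not counted over all probes. Wnt3a and Untreated arrays overlapped. BUB1 rose 1.37-fold with Wnt5a (log2 0.45 ± 0.06, SE, n = 3 per group, limma adjusted p = 0.00143) and 1.44-fold with both (0.52 ± 0.07, adjusted p = 0.00148). The difference with Wnt3a was 0.11 (-0.04 to 0.25).

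BUB1 was also the 1 gene of 49 that passed in the comparisons of Wnt5a and of both with Wnt3a. It rose with Wnt5a relative to Wnt3a by 0.35 ± 0.06 (adjusted p = 0.00721, where 5.9% of probes passed) and with both relative to Wnt3a by 0.42 ± 0.07 (adjusted p = 0.00997, where 4.61% passed). Within chips, the rise with Wnt5a over Untreated cells was 0.43 on chip 1 and 0.50 on chip 2, and that with both on chip 2 was 0.52. Without Untreated array 1, BUB1 was the 1 member still called with both (0.53, limma adjusted p = 0.0308). Leaving out Wnt3a array 1 ended the calls of Wnt5a and of both against Wnt3a (adjusted p = 0.056 and 0.181), and so did scaling the arrays by their medians (0.0704 and 0.0563).

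The other checkpoint genes did not pass. TTK, the kinase that starts the checkpoint signal, had 9.57, 9.80 and 9.81 in Wnt3a cells, 9.75, 9.69 and 9.89 in Wnt5a cells, 9.65, 9.85 and 9.67 with both, and 9.41, 9.77 and 9.62 in Untreated cells, with the groups overlapping. Its chip-adjusted difference with both was 0.27 (0.08 to 0.46, adjusted p = 0.0893). BUB1B, which encodes the checkpoint inhibitor BUBR1, had 5.95, 6.31 and 6.27 in Wnt3a cells, 6.39, 6.62 and 6.53 in Wnt5a cells, 6.60, 6.45 and 6.37 with both, and 6.07, 6.59 and 6.26 in Untreated cells. Its arrays were spread widely within groups, and its differences were -0.13 (-0.39 to 0.13) with Wnt3a, 0.21 (-0.05 to 0.47) with Wnt5a and 0.29 (-0.01 to 0.59) with both. MAD2L1, the MAD2 protein that binds CDC20, and BUB3, a scaffold of the checkpoint and the brightest probe of this role, had differences of 0.03 (-0.27 to 0.34) and -0.08 (-0.25 to 0.09) with both.

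Of the targets and activators of the anaphase-promoting complex, 0 of 4 passed, and 0 had an unadjusted p under 0.05 against Untreated cells. CDC20, the activator that the checkpoint blocks, differed by 0.03 with Wnt3a, 0.09 with Wnt5a and 0.08 with both. UBE2C, the ubiquitin-conjugating enzyme of the complex, had -0.02, -0.10 and -0.07. PTTG1, securin, had 0.08, -0.11 and -0.08, and ESPL1, the separase that securin holds inactive, had 0.05, -0.11 and -0.03. Over the 12 values, the intervals reached -0.26 at the lowest and 0.28 at the highest.

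In the kinetochore and centromere group 1 of 6 genes passed with both ligands and 0 with either alone. CENPF, a large kinetochore protein of late cell cycle phases, had log2 intensities of 8.82, 8.77 and 8.90 in Wnt3a cells, 8.75, 8.89 and 8.90 in Wnt5a cells, 8.94, 8.85 and 8.95 with both, and 8.47, 8.59 and 8.72 in Untreated cells. All 9 treated arrays lay above the 3 Untreated arrays, a separation not counted over all probes. CENPF rose 1.28-fold with both (0.35 ± 0.09, limma adjusted p = 0.0331), and its differences were 0.24 (0.07 to 0.41, adjusted p = 0.198) with Wnt3a and 0.26 (0.09 to 0.43, adjusted p = 0.0799) with Wnt5a. The difference with both was 0.45 within chip 2. It was 0.24 without Untreated array 1 (adjusted p = 0.366). The call held in 10 of 20 alternatives and also ended without Wnt3a array 1 or 3 (0.0605 and 0.0541), Wnt5a array 3 (0.0548), combination array 1 or 3 (0.0743 and 0.0905) or Untreated array 2 (0.0621), under median scaling (0.0688), without the detection filter (0.0972) and with the replicate number as a block (0.31, adjusted p = 0.0525).

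CENPA, the histone variant that marks the centromere, had differences below 0. Its log2 intensities were 10.21, 10.23 and 10.15 in Wnt3a cells, 10.11, 10.04 and 9.99 in Wnt5a cells, 10.17, 10.09 and 10.12 with both, and 10.33, 10.16 and 10.27 in Untreated cells. The 3 Wnt5a arrays lay below the 3 Untreated arrays, but the difference of -0.21 (-0.35 to -0.07) did not pass (adjusted p = 0.0903). The difference with both was -0.16 (-0.32 to 0.01). The 4 members of the NDC80 complex, which grips microtubules, had differences with both of 0.14 (NDC80), 0.18 (NUF2), 0.16 (SPC24) and 0.005 (SPC25), and none passed.

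Of the motors 1 of 6 passed, and it fell. KIF4A, a chromosome-bound kinesin that works with condensin and at the central spindle, had log2 intensities of 8.53, 8.31 and 8.31 in Wnt3a cells, 8.19, 8.38 and 8.18 in Wnt5a cells, 8.23, 8.35 and 8.11 with both, and 8.52, 8.39 and 8.40 in Untreated cells. Arrays of the combination and of Wnt5a lay below the Untreated arrays, though Wnt5a array 2 and Untreated array 2 were almost level at 8.38 and 8.39. KIF4A fell by 0.33 ± 0.08 with both (adjusted p = 0.0266), with a difference of -0.19 (-0.33 to -0.04, adjusted p = 0.16) with Wnt5a and -0.06 (-0.20 to 0.09) with Wnt3a. On chip 2 the difference with both was -0.29. The call held in 13 of 20 alternatives and ended without Untreated array 1 (-0.37, adjusted p = 0.126), without Wnt3a array 1 (0.0612), without combination array 1 or 3 (0.0565 and 0.0809), under median scaling (0.11), without the detection filter (0.0761) and without the chip term (-0.20, adjusted p = 0.242).

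The other 5 motors had positive differences with both. KIF11, the kinesin that pushes spindle poles apart, had 0.24 (-0.05 to 0.54). CENPE, the kinesin that carries chromosomes to the spindle equator, had 0.14 with Wnt3a and 0.16 with both, with an adjusted p of 0.39 and 0.225. KIF2C, a depolymerase of microtubules and the brightest probe of this role, had 0.15, 0.12 and 0.10 with Wnt3a, Wnt5a and both. KIF20A and KIF23, motors of the central spindle in cytokinesis, had 0.08 and 0.11 with both.

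**Figure D3:**
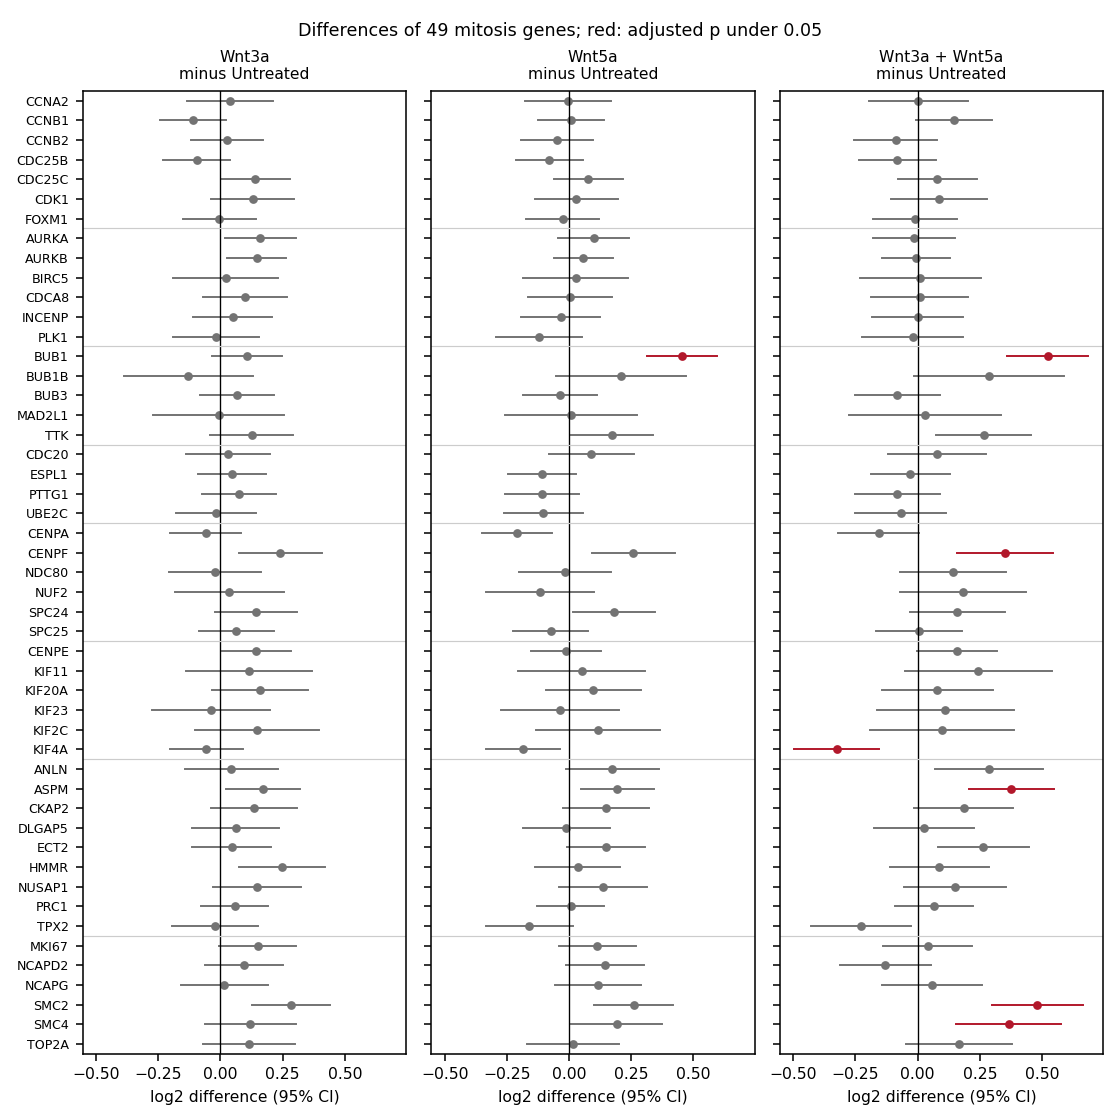
Chip-adjusted log2 differences from Untreated cells (x axis, log2 units; points with 95% intervals from limma) for 49 mitosis genes by role, for Wnt3a, Wnt5a and both ligands. Red marks an adjusted p under 0.05: 0 genes with Wnt3a, BUB1 with Wnt5a, and BUB1, CENPF, KIF4A, ASPM, SMC2 and SMC4 with both.

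Among 9 spindle and cytokinesis genes 1 passed, with both ligands. ASPM, which organises microtubules at spindle poles, had log2 intensities of 9.99, 10.27 and 10.28 in Wnt3a cells, 10.16, 10.13 and 10.31 in Wnt5a cells, 10.24, 10.33 and 10.19 with both, and 9.88, 10.05 and 10.09 in Untreated cells. The combination and Wnt5a arrays lay above the Untreated arrays, and Wnt3a array 1 overlapped them. ASPM rose 1.30-fold with both (0.38 ± 0.08, adjusted p = 0.0133), and its differences were 0.17 (0.02 to 0.32) with Wnt3a and 0.19 (0.05 to 0.34) with Wnt5a, with adjusted p of 0.323 and 0.138. On chip 2 the difference with both was 0.38. The call ended without Untreated array 1 (0.38, adjusted p = 0.122) and without the chip term (0.25, adjusted p = 0.16).

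Cytokinesis genes had the next values with both: 0.29 (0.07 to 0.50) for ANLN, the ring scaffold anillin, and 0.26 (0.08 to 0.45) for ECT2, the exchange factor that sets up the cleavage furrow, with adjusted p of 0.105 and 0.0802. TPX2, which activates Aurora A on the spindle, had -0.16 with Wnt5a and -0.23 (-0.43 to -0.03, adjusted p = 0.162) with both. HMMR, a spindle and hyaluronan-binding protein, had 9.52, 9.55 and 9.64 in Wnt3a cells, 9.24, 9.51 and 9.33 in Wnt5a cells, 9.55, 9.40 and 9.37 with both, and 9.30, 9.31 and 9.35 in Untreated cells. The Wnt3a arrays lay above the Untreated arrays, and the difference of 0.25 (0.08 to 0.42) did not pass (adjusted p = 0.195). NUSAP1, a microtubule bundler and the brightest probe of this role, had 0.15, 0.14 and 0.15 with Wnt3a, Wnt5a and both.

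Condensin had 2 genes that passed with both ligands, the ATPase subunits SMC2 and SMC4. SMC2 had log2 intensities of 8.47, 8.84 and 8.91 in Wnt3a cells, 8.69, 8.61 and 8.85 in Wnt5a cells, 8.70, 8.76 and 8.69 with both, and 8.18, 8.58 and 8.61 in Untreated cells. The combination arrays lay above the Untreated arrays, while in the other groups the chip 2 array (Wnt3a 1, Wnt5a 2 and Untreated 1) was the lowest of its group. SMC2 was the 1 member with a chip difference that passed (chip 1 higher by 0.33, adjusted p = 0.0429). It rose 1.40-fold with both (chip-adjusted 0.48 ± 0.08, adjusted p = 0.00511), and its differences were 0.28 (0.13 to 0.44, adjusted p = 0.0864) with Wnt3a and 0.26 (0.10 to 0.42, adjusted p = 0.062) with Wnt5a. On chip 2 the difference with both was 0.54. Without the chip term it was 0.26 (adjusted p = 0.303), and without Untreated array 1 it was 0.41 (adjusted p = 0.11).

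SMC4 had 11.84, 12.06 and 12.02 in Wnt3a cells, 11.91, 12.07 and 12.16 in Wnt5a cells, 12.05, 12.25 and 12.15 with both, and 11.76, 11.95 and 11.86 in Untreated cells. The combination arrays lay above the Untreated arrays, and both single ligands overlapped them. SMC4 rose 1.29-fold with both (0.37 ± 0.10, adjusted p = 0.0397), with 0.39 on chip 2. The call held in 7 of 20 alternatives. It ended without Untreated array 1, 2 or 3 (adjusted p = 0.28, 0.0514 and 0.0722), Wnt3a array 1, 2 or 3 (0.0935, 0.0641 and 0.064), Wnt5a array 3 (0.0634) or combination array 2 or 3 (0.103 and 0.0895), under median scaling (0.0687), without the detection filter (0.115), without the chip term (0.0766) and for the mean of its probes (0.0691). Further probes did not pass: SMC2 had 2 with differences of 0.38 (adjusted p = 0.0619) and 0.13 (adjusted p = 0.656), and SMC4 had 1 with 0.14 (adjusted p = 0.362).

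The non-ATPase condensin subunits NCAPG and NCAPD2 had differences with both of 0.06 (-0.14 to 0.26) and -0.13 (-0.31 to 0.05), and neither passed with any ligand. TOP2A, the topoisomerase that untangles sister chromatids, had 0.12 with Wnt3a, 0.02 with Wnt5a and 0.17 with both. MKI67, the proliferation marker Ki-67 that coats mitotic chromosomes, had 0.15 (-0.01 to 0.30), 0.11 (-0.04 to 0.27) and 0.04 (-0.14 to 0.22). All 6 detected genes of this role had positive differences with Wnt3a and with Wnt5a, and 0 of them passed there. Their unadjusted p was under 0.05 for 1 gene with Wnt3a and 2 with Wnt5a, where 12.1% and 17.5% of all probes had one.

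**Figure D4:**
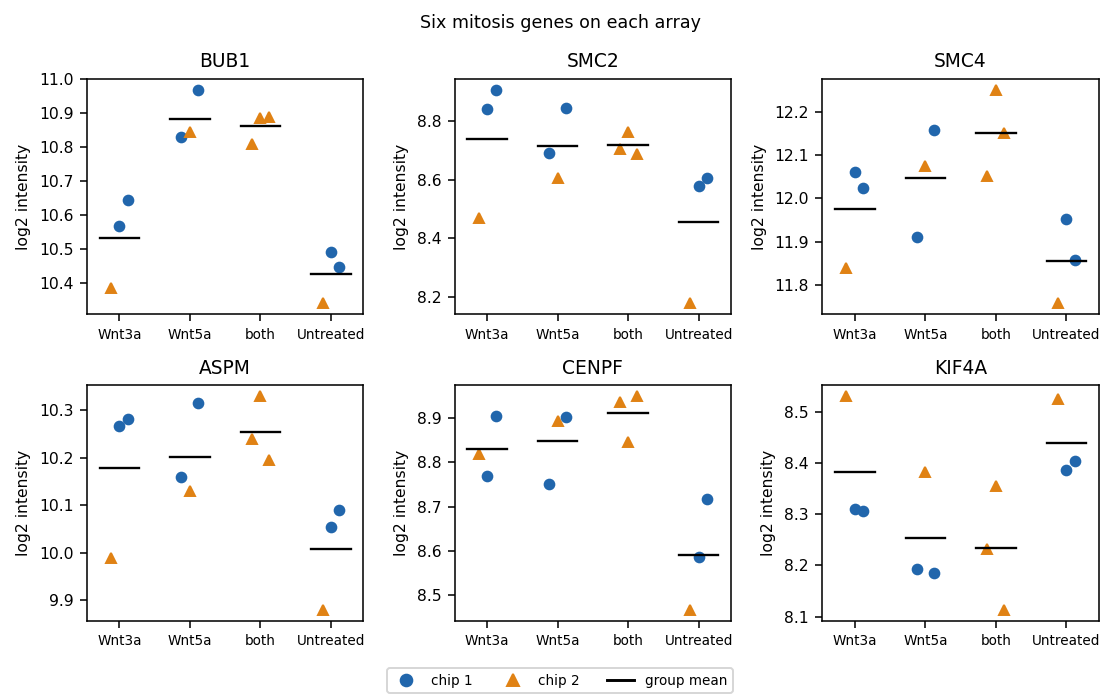
Log2 intensity (y axis, a separate range for each gene that does not start at 0) of the 6 mitosis genes that passed in any comparison with Untreated cells, by group (x axis). Points are arrays, circles for chip 1 and triangles for chip 2, and bars are group means without chip adjustment. The 3 combination arrays do not overlap the 3 Untreated arrays for any of the 6 genes, which were picked by their calls on these same arrays. Of all probes, 11.4% lay wholly above and 11.7% wholly below in that comparison.

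Separation of groups was counted over all members. The 3 combination arrays all lay above the 3 Untreated arrays for 10 of 49 genes and below for 1, against 11.4% and 11.7% of all probes. Against the other 2 Untreated arrays alone they lay above for 13 and below for 2, as did 17% and 17.8% of probes. With Wnt5a the counts were 6 above and 2 below (9.74% and 10% of probes), and with Wnt3a 5 above and 0 below (6.88% and 6.61%). Among 19 members with a second detected probe, 17, 17 and 10 of 23 further probes had the sign of the main probe with Wnt3a, Wnt5a and both, and 0 passed. BUB1, ASPM, CENPF and KIF4A had 1 probe each.

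For both relative to Wnt5a, 0 of 49 genes passed, where 0.121% of probes did. An unadjusted p under 0.05 was found for 4 higher and 1 lower, where 8.85% of probes had one. The interaction, that is, the difference made by Wnt3a on top of Wnt5a minus that made by Wnt3a alone, passed for 0 genes and for 0% of probes, with 1 higher and 3 lower at an unadjusted p under 0.05, as were 7.82% of probes. The F test over the 4 groups passed for 3 of 49 genes, where 8.8% of probes passed: BUB1 (adjusted p = 0.000983), SMC2 (0.0138) and ASPM (0.0408).

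Genes with and without a CHR match were set side by side. The median difference with both was 0.08 for the 30 members with a match and 0.09 for the 12 without, and 24 and 9 were positive. With Wnt5a the medians were 0.02 and 0.07, and with Wnt3a 0.05 and 0.14. With both, 5 of the 30 with a match passed and 1 of the 12 without, BUB1, where 7.77% of all probes passed. A link between match and response was not tested. The window of SMC2 had a CHR at -3 and that of SMC4 at -75, both on the opposite strand, and neither held a box.

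A list of 151 further genes of mitosis and its regulators, 135 of them detected, had medians of 0.03, -0.001 and 0.02 with Wnt3a, Wnt5a and both. With Wnt3a 0 passed, against 1.52% of probes. An unadjusted p under 0.05 was found there for 13 higher and 2 lower genes and for 12.1% of probes. With Wnt5a 3 of 135 passed, against 5.25% of probes. HAUS2, a subunit of augmin that branches spindle microtubules, rose by 0.41 ± 0.07 (adjusted p = 0.00584). TFDP2 and E2F5, partners in E2F complexes that regulate cell cycle promoters, fell by 0.36 ± 0.07 and 0.29 ± 0.07 (adjusted p = 0.00655 and 0.0306). With both, 5 of 135 passed, against 7.77% of probes, and 4 rose and 1 fell: BORA, an activator of PLK1, by 0.36 ± 0.08 (adjusted p = 0.0148), PLK4, the centriole kinase, by 0.31, the cohesin subunit STAG1 by 0.27 and the PCNA-binding KIAA0101 by 0.25, while E2F5 fell by 0.34 ± 0.08 (adjusted p = 0.0238).

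HAUS2 had log2 intensities of 8.50, 8.55 and 8.51 in Wnt3a cells, 8.80, 9.07 and 8.89 in Wnt5a cells, 8.79, 8.83 and 8.86 with both, and 8.51, 8.45 and 8.57 in Untreated cells. As with BUB1, every array with Wnt5a lay above every array without it. These genes were named for their calls on the same arrays, and the share of all probes so separated was not counted. The HAUS2 call with Wnt5a held in 20 of 20 alternatives. E2F5 had 8.40, 8.27 and 8.23 in Wnt3a cells, 8.17, 8.15 and 8.29 in Wnt5a cells, 8.21, 8.08 and 8.21 with both, and 8.50, 8.49 and 8.48 in Untreated cells. All 9 treated arrays lay below the 3 Untreated arrays, again a separation not counted over all probes. Its calls held in 13 of 20 alternatives with Wnt5a, ending without Wnt5a array 1 or 2 (adjusted p = 0.0736 and 0.156) or Untreated array 1, 2 or 3 (0.106, 0.0931 and 0.0793), under median scaling (0.0787) and without the detection filter (0.0846). With both they held in 15 of 20, ending without Untreated array 1 (0.157), Wnt3a array 1 (0.0555) or combination array 2 (0.0641), under median scaling (0.0898) and without the detection filter (0.068). The calls of PLK4, STAG1 and KIAA0101 held in 7, 6 and 5 of 20 and ended in most fits that left out an array, with adjusted p of 0.384, 0.3 and 0.269 without Untreated array 1. That of BORA ended without Untreated array 1 (0.205) and without the chip term (0.25, adjusted p = 0.101). TFDP2, called in 19 of 20, had -0.24 in the authors' log2 values and lost its call for the mean of its probes (-0.27, adjusted p = 0.0938).

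Between treatments, CKAP5, a microtubule polymerase of the spindle, had 11.27, 11.22 and 11.39 in Wnt3a cells, 10.88, 10.90 and 11.02 in Wnt5a cells, 11.28, 11.19 and 11.25 with both, and 11.06, 11.14 and 11.04 in Untreated cells. Every Wnt5a array lay below every Wnt3a array, and CKAP5 fell with Wnt5a relative to Wnt3a by 0.36 ± 0.07 (adjusted p = 0.00721). Against Untreated cells its differences were 0.22 with Wnt3a and -0.15 with Wnt5a, with adjusted p of 0.177 and 0.297. HAUS2 rose by 0.40 ± 0.07 with Wnt5a relative to Wnt3a (adjusted p = 0.0055). In that comparison 1 gene of the 135 was called higher and 1 lower, where 5.9% of probes passed. For both relative to Wnt3a, 1 of 135 passed, against 4.61% of probes. ESCO1, which acetylates cohesin, rose by 0.48 ± 0.10 there (adjusted p = 0.0243). That call ended without Wnt3a array 1 or 2 (adjusted p = 0.317 and 0.0511), without combination array 2 or 3 (0.0614 and 0.0531), without the chip term (0.29, adjusted p = 0.283), under median scaling (0.0553), without the detection filter (0.0738) and in the authors' log2 values, where the difference was 0.13 (0.0638).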

How the data were processed

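Total RNA of CHRF288-11 cells (500 ng, amplified and labelled) was hybridised to Illumina BeadChips, 12 arrays in 4 groups of 3. The authors deposited an intensity per probe that was not normalized, and a detection fraction that, per the file headers, is a detection p-value but runs the other way (1 for the brightest probes), so that 1 minus it was used as the p. They also deposited a table of log2 values, used as an alternative. lumi is named, without version or role, per the submitters' processing notes.

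The intensities were background-corrected (normexp with negative controls inferred from the detection p, offset 16), quantile normalized and log2-transformed with limma 3.58.1 in R 4.3.3. The test took every probe detected (p under 0.01) on 3 or more arrays. All 12 arrays entered 1 linear model with the group and the chip as terms, which left 7 residual degrees of freedom, moderated with 5.04 prior ones. Two-sided p-values of the 14051 probes were adjusted together (Benjamini-Hochberg), and genes were called at 0.05. Differences are chip-adjusted, and intervals are 95% and not adjusted for multiple tests. The fit was tested on simulated data.

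Symbols came from the platform annotation or the deposited file, and 1 probe whose symbol is an old synonym of AURKB was left out because the annotation gives it to another gene. The members, the further list and the marker lists were chosen with earlier results of these data known. Genes were named when they passed, when they were among the 3 highest or lowest members against Untreated cells, or as the brightest and dimmest probes. Other genes of the same role were named beside them after their values were seen. Promoter windows are RefSeq's on GRCh38.p14; the array files name no genome build. Alternatives were no background correction, median scaling, the authors' log2 values, no detection filter or detection on all 12 arrays, no chip term, a replicate block, the mean of a gene's probes, and leaving out each array. The number of arrays limits the precision.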

Additional observations from a re-analysis of the deposited data

How the results depend on the processing

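Followed singly were 33 results: each gene called in a comparison, and the 3 highest and 3 lowest mitosis genes in each comparison with Untreated cells. Of their 660 values under the 20 alternatives, 544 kept direction and side of the threshold, 103 lost the call, 13 gained one and 0 reversed. The 544 include values that were not called and stayed so, and thus do not measure how well the calls held. Single calls held in 5 (KIAA0101 with both) to 20 of 20 alternatives. Other mitosis genes also gained calls, and those enter only the counts that follow. BUB1 was called with Wnt5a and with both against Untreated cells in all 20 alternatives. The number of mitosis genes called moved more than that. With Wnt3a it was 0, and 1 without background correction, 2 in the authors' log2 values and 0 to 1 when each array was left out, where the gain was SMC2 without Wnt5a array 1 (adjusted p = 0.049). With Wnt5a it was 1, and 4 without background correction, 5 in the authors' log2 values, 2 over probes detected on all 12 arrays, and 1 to 3 when each array was left out, 3 without Wnt5a array 1. With both it was 6, and 8 without background correction and 8 in the authors' log2 values (TTK and ECT2 added in each), 3 under median scaling, 3 without the detection filter, 2 without the chip term and 1 to 6 when each array was left out. It was 1 without Untreated array 1, where the count over all probes was 238 against 1092, and 3 without Wnt3a array 1 or combination array 3. For both against Wnt3a it was 1, and 3 without background correction, 0 under median scaling, 4 in the authors' log2 values, 2 over probes detected on all 12 arrays and 0 to 2 when each array was left out (0 without Wnt3a array 1, 2 without Wnt5a array 2 or combination array 2). For Wnt5a against Wnt3a it was 1, and 0 under median scaling, 2 in the authors' log2 values and 0 to 1 when each array was left out. For the F test it was 3, and 6 without background correction, 8 in the authors' log2 values, 5 over probes detected on all 12 arrays, 1 without the chip term and 1 to 5 when each array was left out (1 without Untreated array 1, 5 without Wnt5a array 1). The cause of these shifts was not tested.

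With the replicate number of the titles as a replicate block, 2 mitosis genes were called with Wnt5a, BUB1 and SMC2 (adjusted p of SMC2 = 0.033), CENPF with both was no longer called (0.31, adjusted p = 0.0525), and the other counts moved by no more than 1. Of 18 pairs of same-numbered arrays, 11 had a correlation of their deviations above 0.1, in a range of -0.162 to 0.5. All 3 pairs of Wnt3a and Untreated arrays did (0.217 to 0.5), but each of these pairs also shared a chip, and with the chip removed as well, a check added after seeing the data, their correlations were -0.407, 0.056 and -0.0195. Before the chip was removed, no other pair of groups had all 3 above 0.1. Over all groups with the chip removed, pairs numbered 1 ran from -0.407 to 0.406. Those numbered 2 ran from 0.056 to 0.295, and those numbered 3 from -0.164 to 0.0978. The labels do not say what a shared number stands for. With Wnt3a, 0 mitosis genes were called with the block and 0 without it. Over all probes, the counts with Wnt3a were 213, and 354 without background correction, 346 in the authors' log2 values, 119 without the detection filter and 76 to 229 when each array was left out. For both against Wnt3a they were 648, and 1108 without background correction, 371 under median scaling, 397 without the chip term, 269 without the detection filter and 86 to 882 when each array was left out. With both they were 1092, and 520 without the detection filter. The chip 2 comparisons rest on 1 Untreated array.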
